A study of Homo sapiens with 12 samples.

Results

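The response of HT1080 cells to ionising radiation was measured in 6 of the 12 RNA sequencing libraries of a study of radiation and interferon gamma. HT1080 is an established human fibrosarcoma line with mesenchymal features. The compared groups were 3 libraries of cells that received 20 Gy and 3 libraries of cells that received neither treatment. All were made from cells at passages 15 to 20 grown in the same medium, and the protocol has cells collected 24 h after treatment. The other 6 libraries came from cells given interferon gamma at 10 ng/ml, alone or together with 20 Gy, and served here to estimate the spread between replicates and as a reference level for interferon gamma genes. Libraries were assigned to groups by their treatment labels, and every gene that passed the filter on low counts was tested. Only 1 dose, 1 time and 1 cell line were sampled. In bulk RNA, fewer cells of a type and less RNA per cell cannot be told apart, and values scaled to library size do not show how much RNA a cell held.

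Ionising radiation breaks DNA, and the kinases ATM and ATR pass that signal on to transcription. Among the genes switched on are MDM2, a ubiquitin ligase that dampens the response, and CDKN1A, which encodes the kinase inhibitor p21. When p21 holds back cyclin-dependent kinases, RB-family proteins stay bound to E2F transcription factors and genes for DNA replication are kept low. A complex of the same proteins with MuvB restrains genes of G2 and mitosis. A separate programme under the transcription factor ATF4 sets amino acid synthesis and uptake.

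The labelled cell type was checked against markers. The mesenchymal genes VIM (vimentin), FN1 (fibronectin) and CDH2 (N-cadherin) had 5187, 1632 and 168 CPM (counts scaled to the size of each library) in untreated cells, and 11 of 12 mesenchymal markers passed the filter. THY1 did not. EPCAM, CDH1, PECAM1 and PTPRC, which define epithelial, endothelial and blood cells, were too low to be tested. Of 8 epithelial markers 3 passed the filter, among them the keratin KRT8 at 246 CPM and CLDN4 at 1.85 CPM in untreated cells. Of 5 endothelial markers 2 passed. Of 11 immune markers only CD68, a lysosomal protein of macrophages that other cells also make, was tested.

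Total counts ran from 9762772 to 10550510 in untreated and from 9675126 to 10084853 in irradiated libraries. The first principal component of the 6 libraries held 75% of the variance and separated the groups. Untreated replicate 1 had 15308 genes detected against 14301 and 14191 in the other untreated libraries, and radiation replicate 2 had 15145 against 14623 and 14673. Radiation replicate 2 also held reads of interferon gamma genes, described below, so the counts of the main lists are given with and without that library. Replicate pairs within a group differed by more than sampling noise, with a chi-square per degree of freedom of 1.14 to 2.75. The values of 2.75 and 2.13 belonged to pairs with untreated replicate 1, and the other pairs lay between 1.14 and 1.3.

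Radiation changed the level of more than 1 in 2 of the genes that could be tested. Of 12160 genes, 3389 (27.9%) were higher and 3427 (28.2%) were lower by edgeR's quasi-likelihood test at a Benjamini-Hochberg adjusted p under 0.05. The counts of gene lists below are to be read beside these shares of all genes. The median log2 fold change over all genes was 0.0061 and the median absolute change was 0.23. At least 2-fold increases numbered 470 (3.87%) and at least 2-fold decreases 141 (1.16%). A test against a 1.5-fold change (edgeR's glmTreat) called 235 genes lower. In 30.4% of the genes all 3 irradiated libraries lay above all 3 untreated ones, and in another 30.4% they lay below. Without radiation replicate 2, 25.6% were higher and 26.2% lower, and 89.7% of the higher and 91.3% of the lower calls were kept with 0 calls in the opposite direction.

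**Figure D1:**
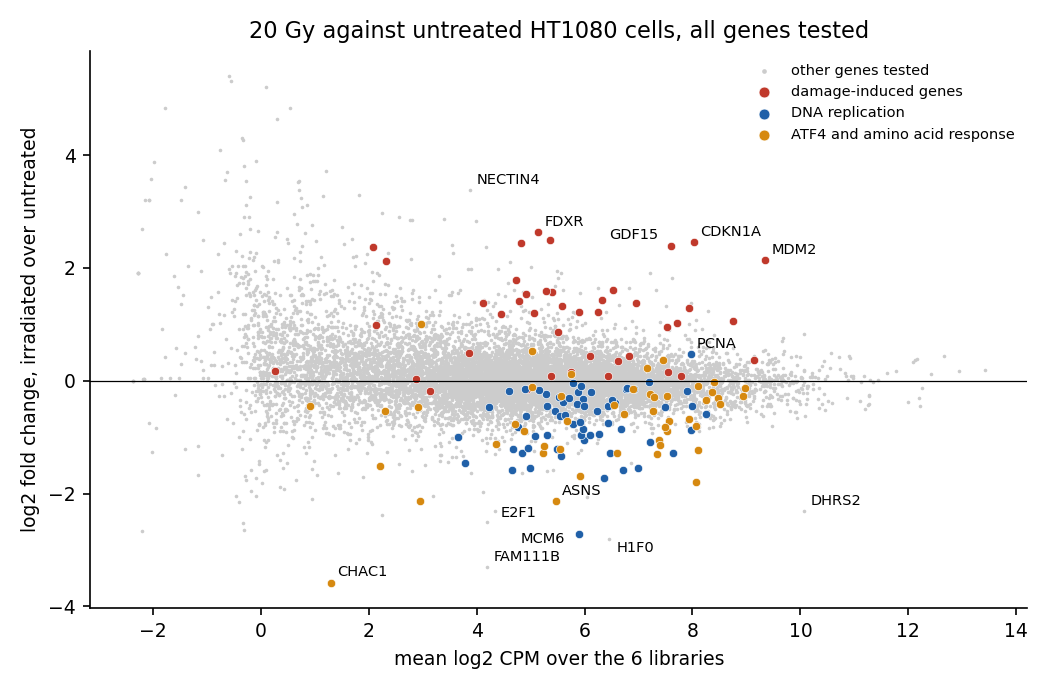
Log2 fold change of irradiated over untreated cells against the mean log2 CPM of the 6 libraries, 1 point per gene tested, with 3 gene lists coloured. The red damage-induced genes lie mostly above 0, and the blue replication genes and orange amino acid response genes mostly below it. Increases of more than 4 log2 units belong to genes with very few counts in untreated cells.

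Among well-expressed genes, the largest increases included several that are not classic damage genes. NECTIN4, a cell adhesion protein of the nectin family, stood at 4.22, 5.18 and 3.96 CPM in the 3 untreated libraries and at 46.2, 45.5 and 48.2 CPM in the 3 irradiated ones, a 10.4-fold difference. SULF2, which removes sulfate from heparan sulfate chains outside the cell, went from 1.5, 1.6 and 3.35 to 20.4, 11.7 and 15.8 CPM. The libraries of each group differed more in SULF2 than in NECTIN4, yet the groups did not overlap. SUGCT, a mitochondrial enzyme of glutarate metabolism, had 5.91, 4.89 and 6.9 CPM before and 41.7, 40.8 and 42.9 CPM after radiation. The giant membrane protein gene CSMD3 rose 7.21-fold, FAM212B 7.22-fold and the hormone-responsive gene GREB1 5.31-fold. HRNR, known as a protein of the cornified skin layer, had only 12, 17 and 21 counts in untreated libraries and 140, 123 and 118 in irradiated ones.

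Of the 15 largest decreases, 4 belonged to the list of ATF4 and amino acid genes, 3 to that of E2F and G1 regulators, 2 to DNA replication and 1 to histones, and 5 were on none of the lists. FAM111B, which encodes a trypsin-like protease, had the largest of them, from 54, 59.2 and 58.2 to 7.16, 5.42 and 4.76 CPM. WDR76, a WD-repeat protein gene, fell 5.65-fold. DHRS2, a short-chain dehydrogenase, stood at 2485, 2392 and 2322 CPM in untreated and at 489.8, 479.7 and 482 CPM in irradiated libraries. Its libraries agreed closely within each group, and the log2 fold change was -2.31 ± 0.0297 (± SE, edgeR adjusted p = 2.05e-53). ESM1, a secreted proteoglycan, had 111, 149.7 and 146 CPM in untreated and 33.5, 32.3 and 31.1 CPM in irradiated libraries. Untreated replicate 1 was the lowest of its group for ESM1, and the groups were still far apart. CCDC144NL fell 3.92-fold, from 34.1 ± 2.86 to 8.69 ± 0.335 CPM (SD, n = 3).

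Genes known as targets of the damage response rose as a group. Of 44 tested members of this list of damage-induced genes, 37 were higher, 1 was lower and 6 were not called, with a median log2 fold change of 1.20 against 0.0061 for all genes. Without radiation replicate 2, 36 were higher and 1 lower. The increases of 25 members were at least 2-fold, a size that 3.87% of all genes reached.

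Among the genes that dampen the response, MDM2 stood at 288, 320.0 and 323 CPM in untreated and 1386, 1393 and 1333 CPM in irradiated libraries. The gap was many times the spread within either group. The log2 fold change of MDM2 was 2.14 ± 0.0326 (edgeR adjusted p = 8.12e-48). PPM1D, the phosphatase WIP1 that turns off ATM signalling, rose 2.9-fold from 17.7 ± 2.54 to 51.5 ± 1.97 CPM. MDM4, the binding partner of MDM2, moved the other way, from 68.7, 77.7 and 73.9 to 56.4, 58.4 and 48.5 CPM, and was the only member of the list that fell. ZMAT3, which encodes an RNA-binding protein, rose 2.45-fold.

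Genes that act on the cell cycle made up the second role. CDKN1A was at 118, 103 and 115 CPM in untreated and 619, 602 and 615 CPM in irradiated libraries, a 5.48-fold rise. The antiproliferative gene BTG2 rose 5.44-fold and the stress protein gene TP53INP1 5.61-fold. E2F7, a repressor among the E2F factors, showed a much smaller increase, from 178 ± 12.3 to 198 ± 2.42 CPM (log2 fold change 0.15 ± 0.0395, edgeR adjusted p = 9.75e-04). Of 10 members with this role, 9 rose.

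Of 12 tested death genes 10 rose, with a median of 0.40, beside 1.24 for the arrest genes. The difference between these roles was not tested. BBC3, which encodes PUMA, stood at 10.7, 10.4 and 11.1 CPM in untreated and 29.3, 26.1 and 28 CPM in irradiated libraries. FAS, a death receptor, rose from 22.4 ± 1.06 to 67.9 ± 2.22 CPM, whereas BAX, the pore-forming effector, went from 98.2 ± 6.02 to 132 ± 8.98 CPM. The TRAIL receptor TNFRSF10B had 483, 508 and 489 CPM before and 642, 639 and 642 CPM after radiation, with no overlap. The oxidoreductase gene TP53I3 had the largest change of the role, 3.47-fold.

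Repair and metabolism targets had a median of 1.38 over 13 tested members, 12 of which rose. DDB2, the damage sensor of nucleotide excision repair, stood at 54, 54.7 and 49.3 CPM in untreated and 162, 155 and 168 CPM in irradiated libraries. RRM2B, the damage-induced subunit of ribonucleotide reductase, rose 2.61-fold, and its S phase counterpart RRM2 fell from 373 ± 6.83 to 249 ± 0.789 CPM. FDXR, which passes electrons to mitochondrial cytochromes, rose 6.2-fold, and SPATA18, a mitochondrial quality control gene, 5.19-fold from 19, 17 and 18 counts. GDF15, a secreted stress hormone, went from 90.7, 79.9 and 83.9 to 449.7, 433 and 457 CPM.

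**Figure D2:**
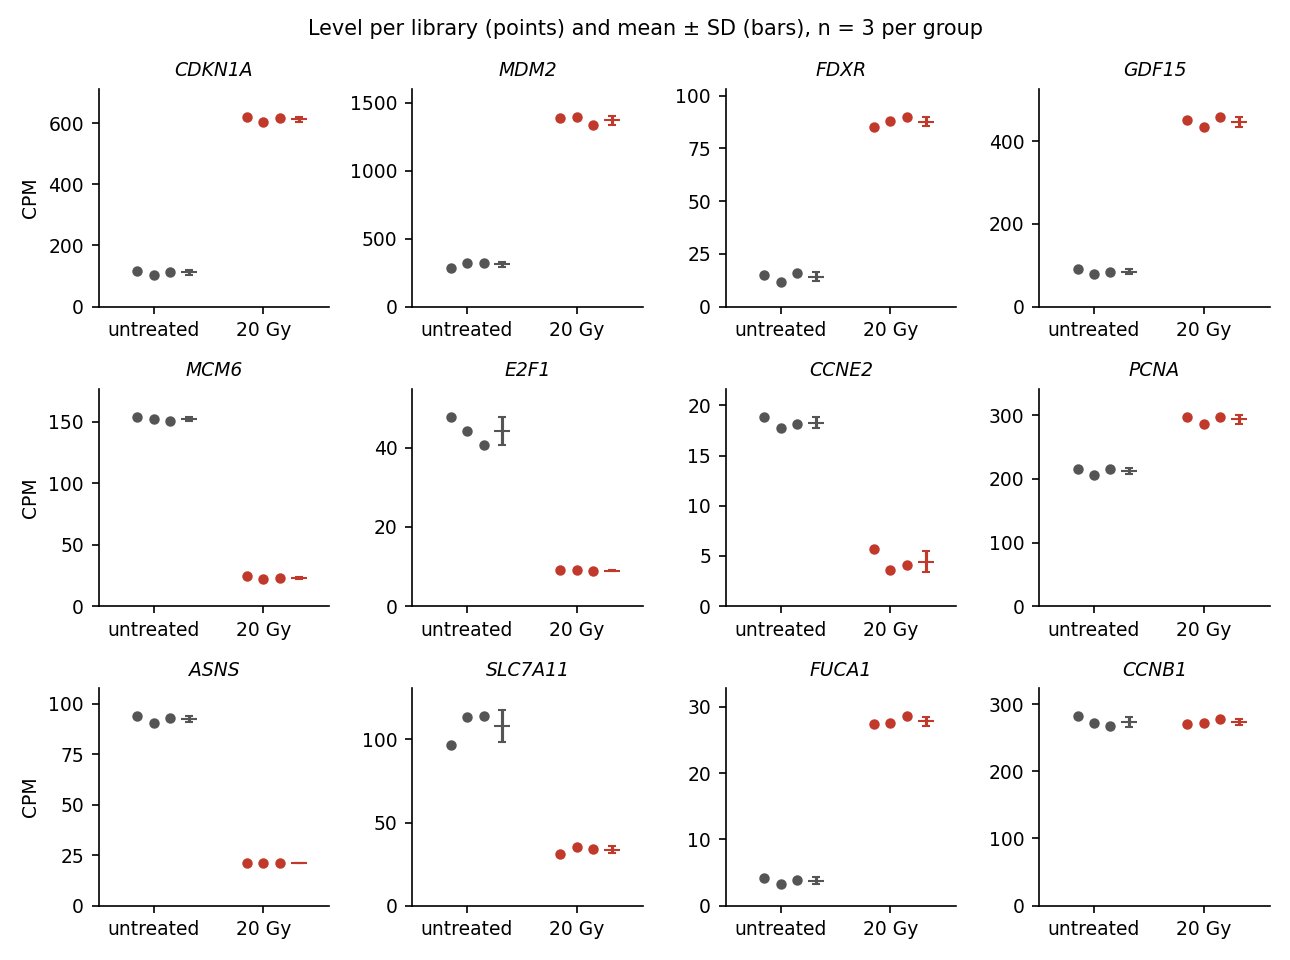
CPM of 12 genes in each of the 3 untreated and 3 irradiated libraries, with mean and SD beside the points and each axis starting at 0. The groups are separate for all genes shown except CCNB1, whose libraries overlap between 274 ± 7.25 and 273 ± 4.24 CPM. PCNA lies higher after radiation while MCM6, E2F1 and CCNE2 lie lower.

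Transcriptional activators of the G1 to S transition fell, and the pocket protein RB1 rose. E2F1 stood at 47.7, 44.2 and 40.7 CPM in untreated and 9.07, 9.04 and 8.85 CPM in irradiated libraries, a 4.93-fold decrease. E2F2 fell from 107, 109 and 104 counts to 22, 21 and 16, and E2F8, a repressor, by 1.35 on the log2 scale. RB1 rose from 166 ± 6.44 to 209 ± 3.12 CPM, and its relative RBL1 fell from 53.4 ± 3.11 to 41.2 ± 2.45 CPM. FOXM1, the activator of mitotic genes, fell only from 226, 211 and 206 to 174, 182 and 183 CPM. Over the list of E2F factors and G1 regulators, 19 of 28 tested members fell and 2 rose, with a median of -0.30, and without radiation replicate 2 the counts were 18 and 2.

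Of 12 tested G1 cyclins, kinases and inhibitors 9 fell and 1 rose, with a median of -0.37, beside 28.2% lower and 27.9% higher among all genes. CCNE2, the cyclin E2 that drives entry into S phase, stood at 18.9, 17.8 and 18.2 CPM in untreated and 5.64, 3.62 and 4.08 CPM in irradiated libraries. CCND1, the cyclin D1 that acts earlier, rose from 781 ± 10.1 to 1044 ± 19.1 CPM. The INK4 inhibitor genes CDKN2C and CDKN2D fell by 0.64 and 1.16 on the log2 scale, while CDKN2A, CDKN2B, CDKN1C and CCND2 were too low to be tested. SKP2, which targets the inhibitor p27 for destruction, fell from 94.2 ± 4.85 to 49.8 ± 1.5 CPM.

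Genes of DNA replication fell almost without exception. Of 62 members, all tested, 57 were lower, 1 was higher and 4 were not called, against 28.2% lower among all genes, and the median log2 fold change was -0.61. Without radiation replicate 2 the counts were 55 lower and 1 higher. At least 2-fold decreases numbered 16 in this list, a size that 1.16% of all genes reached.

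The promoters of MCM6 and E2F1 are shown because these are the most lowered gene of the replication list and one of its main activators. They are the 250 bases before the transcription start in the RefSeq promoter table (GRCh38.p14), read 5′ to 3′ on the gene's own strand. MCM6 lies on the minus strand at chr2:135876444-135876693 and E2F1 on the minus strand at chr20:33686386-33686635. Capitals mark TTGGCGC, a core of E2F binding motifs.
MCM6: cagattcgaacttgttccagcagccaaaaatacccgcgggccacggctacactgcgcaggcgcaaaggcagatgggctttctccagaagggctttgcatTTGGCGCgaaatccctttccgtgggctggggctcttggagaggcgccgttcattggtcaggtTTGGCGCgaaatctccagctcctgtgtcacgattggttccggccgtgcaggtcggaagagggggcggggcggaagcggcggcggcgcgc
E2F1: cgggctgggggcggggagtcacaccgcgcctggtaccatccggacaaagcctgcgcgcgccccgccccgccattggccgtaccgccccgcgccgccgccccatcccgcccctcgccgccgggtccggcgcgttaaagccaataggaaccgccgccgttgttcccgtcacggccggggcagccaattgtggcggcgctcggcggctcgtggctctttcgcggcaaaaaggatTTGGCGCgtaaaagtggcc
The word occurs in MCM6 at 151 and 89 bases before the start and in E2F1 at 19 bases. A match of letters does not show that a factor is bound there.

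Genes that license origins and open them fell together. MCM6, a subunit of the MCM2 to MCM7 ring, stood at 154, 152 and 151 CPM in untreated and 24.2, 22.4 and 22.8 CPM in irradiated libraries, a log2 fold change of -2.72 ± 0.053 (edgeR adjusted p = 2.19e-44). MCM2 fell from 217 ± 10.8 to 73.8 ± 4.46 CPM and MCM5 from 148 ± 7.7 to 44.9 ± 1.79 CPM, so the subunits of 1 ring did not fall by the same factor. GINS2, part of the active helicase, fell 3.0-fold. The origin loaders CDC6 and CDT1 also fell unequally. CDC6 went from 83.8, 90.4 and 79.4 to 41, 44.6 and 45.4 CPM and CDT1 from 46.4, 39.8 and 39.9 to 33, 37.5 and 36.5 CPM. The change of CDT1 was not called without untreated replicate 1 (adjusted p = 0.076) or without radiation replicate 1 (0.069). Over 21 licensing and helicase genes, 20 fell.

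Of 20 genes for polymerases, the sliding clamp and ligase, 16 fell and 1 rose. POLA1, the catalytic subunit that starts each new strand, fell from 74.3 ± 1.09 to 29.6 ± 0.738 CPM. POLE2, of the leading strand polymerase, fell 1.99-fold, and RFC4, of the clamp loader, 2.32-fold. PCNA, the sliding clamp and also a damage-induced gene, was the member that rose, from 216, 206 and 215 to 297, 286 and 298 CPM. LIG1, which seals Okazaki fragments, was not called (67.1, 60.9 and 61.9 CPM in untreated, 58.7, 58.6 and 60.8 CPM in irradiated libraries).

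The PCNA promoter also holds an E2F word, although the gene rose. This gene was chosen for display after its values were seen. The window lies on the minus strand at chr20:5126623-5126872, and capitals mark GCGGGAA, the reverse complement of the E2F word TTCCCGC, at 59 bases before the start. The second start listed for PCNA had none of the words searched.
PCNA: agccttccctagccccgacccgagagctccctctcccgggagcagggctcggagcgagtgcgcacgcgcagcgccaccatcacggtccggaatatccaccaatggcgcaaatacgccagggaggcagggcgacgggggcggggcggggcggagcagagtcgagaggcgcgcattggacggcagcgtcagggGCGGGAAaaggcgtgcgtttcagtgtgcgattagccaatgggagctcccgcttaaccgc
E2F words thus stand before MCM6, which fell 6.59-fold, and before PCNA, which rose.

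All 8 nucleotide supply genes fell, with a median of -0.38. DUT, which keeps uracil out of DNA, went from 112 ± 1.33 to 66.1 ± 1.52 CPM, and thymidylate synthase TYMS only from 127 ± 3.01 to 114 ± 3.82 CPM. All 13 genes of chromatin copying and S phase regulation fell, with a median of -0.96. UHRF1, which brings the maintenance DNA methyltransferase to new DNA, stood at 149, 138 and 129 CPM in untreated and 55.9, 57.6 and 58.3 CPM in irradiated libraries. CDCA7 fell 2.93-fold, the fork protection gene TIPIN 2.75-fold and SLBP, which binds histone messages, from 94.9 ± 2.54 to 48.8 ± 1.57 CPM.

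Genes of G2 and mitosis divided into both directions and changed little. Of 59 members, 14 rose, 27 fell and 18 were not called, with a median of -0.073 and 0 changes of at least 2-fold. Without radiation replicate 2, 13 rose and 27 fell. Among all genes 27.9% rose and 28.2% fell.

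The entry kinase CDK1 rose from 115, 123 and 122 to 156, 155 and 153 CPM and the centrosome kinase AURKA from 134 ± 2.97 to 166 ± 5.3 CPM. CCNB1, the cyclin that activates CDK1, stood at 282, 272 and 267 CPM in untreated and 270.5, 272 and 278 CPM in irradiated libraries, which overlapped, and was not called. WEE1 and PKMYT1, the kinases that hold CDK1 inactive, fell by 0.67 and 0.69 on the log2 scale. PLK1 fell slightly, from 214 ± 15.2 to 190.3 ± 4.14 CPM, and AURKB by 0.40 on the log2 scale.

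Within the spindle and chromosome genes, HMMR, a spindle assembly protein, rose from 134, 128 and 127 to 175, 175 and 181 CPM and TOP2A, which untangles sister chromatids, from 661, 692 and 681 to 858, 851 and 891 CPM. MKI67, the proliferation antigen that coats mitotic chromosomes, fell from 883, 908 and 894 to 619, 592 and 592 CPM. SMC4, a condensin subunit, fell from 727 ± 23.8 to 536 ± 16.4 CPM. None of the 12 genes of anaphase and cytokinesis rose and 7 fell, among them CDC20, the activator of the anaphase-promoting complex (251, 244 and 252 to 176, 175 and 179 CPM), and its inhibitor FBXO5, known as EMI1 (62.5 ± 1.91 to 42.2 ± 2.11 CPM).

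**Figure D3:**
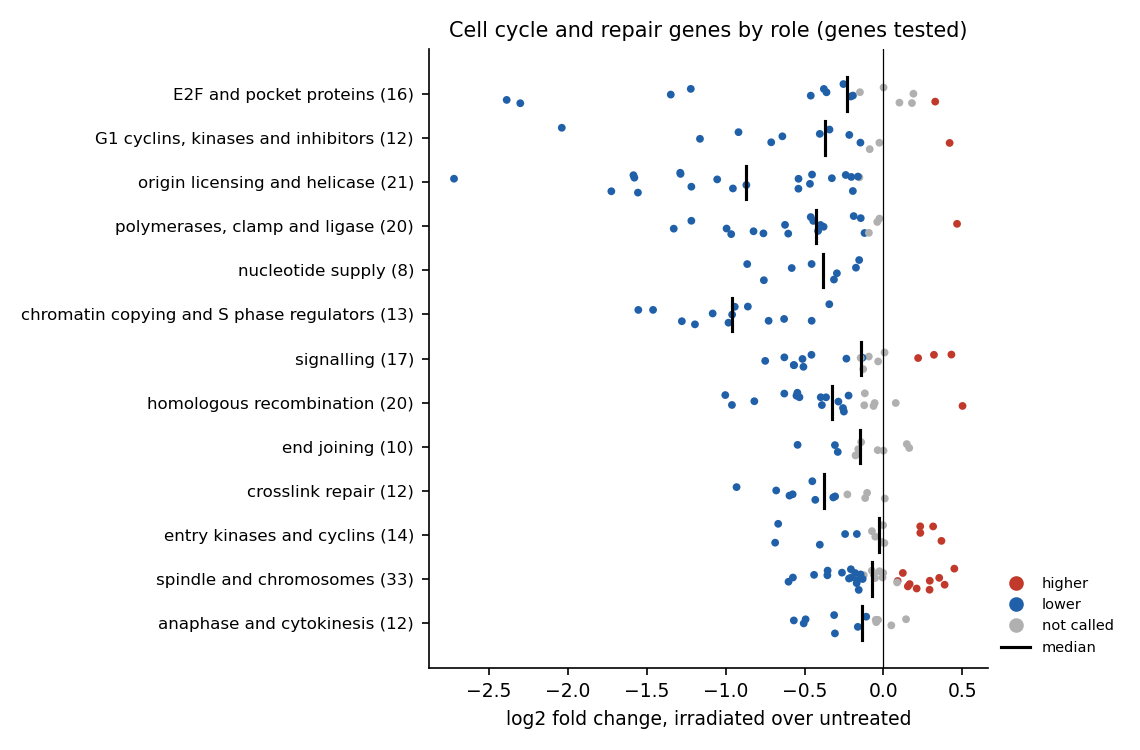
Log2 fold change of each tested gene of the cell cycle and repair lists, 1 row per role with the number of genes tested, coloured by the edgeR call, with the median as a black bar. Licensing, helicase and chromatin copying genes spread far to the left, with medians of -0.87 and -0.96. The 3 rows of G2 and mitosis stay close to 0.

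HMMR and MKI67 moved in opposite directions and carry the same promoter word, so both promoters are shown. They were chosen after their values were seen. Capitals mark TTTGAA, the core of the cell cycle genes homology region, to which the DREAM complex and B-MYB with MuvB are known to bind. HMMR lies on the plus strand at chr5:163460382-163460631 and MKI67 on the minus strand at chr10:128126424-128126673.
HMMR: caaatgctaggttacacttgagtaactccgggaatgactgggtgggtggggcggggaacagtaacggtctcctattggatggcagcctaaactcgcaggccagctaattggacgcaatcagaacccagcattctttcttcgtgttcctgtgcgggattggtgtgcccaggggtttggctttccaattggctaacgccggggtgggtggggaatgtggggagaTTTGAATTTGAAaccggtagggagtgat
MKI67: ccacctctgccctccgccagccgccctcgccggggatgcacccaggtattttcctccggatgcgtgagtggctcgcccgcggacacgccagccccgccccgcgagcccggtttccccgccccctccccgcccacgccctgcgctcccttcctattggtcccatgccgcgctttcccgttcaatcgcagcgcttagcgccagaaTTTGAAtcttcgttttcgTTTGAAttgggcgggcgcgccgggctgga
The word occurs at 28 and 22 bases before the start in HMMR and at 47 and 29 bases in MKI67.

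Over all genes, promoter words were counted in the same 250-base window on both strands. Of the 12160 genes tested, 9962 matched an entry of the table. TTGGCGC or TTCCCGC was present for 15.7% of these, for 12.6% of the higher and 20.6% of the lower genes, and for 32.4% (36 of 111) of genes that fell at least 2-fold. In the replication list it was present for 51.9% (28 of 54), in the G2 and mitosis list for 20.0% and in the list of damage-induced genes, which mostly rose, for 22.2% (8 of 36). Between the replication list and the G2 and mitosis list, TTTGAA showed the reverse order. It was present for 64.0% (32 of 50) of G2 and mitosis genes, 5.56% of replication genes and 12.1% of all tested genes. Over all 35116 promoters of the table the shares were 7.81% for the E2F words and 13.3% for TTTGAA. These count each start by itself, whereas a gene counted above if any of its starts held the word.

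Genes of damage signalling and break repair mostly fell. Of 59 members 34 fell and 4 rose, with a median of -0.26, and without radiation replicate 2 the counts were 33 and 4. The rises were those of ATM, which went from 107, 111 and 111 to 146, 157 and 141 CPM, its effector kinase CHEK2 (17.6 ± 1.41 to 22 ± 1.1 CPM), TP53BP1, which favours end joining (63.3 ± 0.452 to 73.7 ± 2.95 CPM), and RAD51B, of homologous recombination (4.14 ± 0.578 to 5.87 ± 0.105 CPM). ATR was not called, and its effector CHEK1 fell from 66 ± 1.3 to 48.2 ± 2.2 CPM.

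In homologous recombination 14 of 20 genes fell and 1 rose. BRCA1 and BRCA2 fell by 0.36 and 0.39 on the log2 scale. In end joining 3 of 10 genes were lower and 7 were not called, a share near the 28.2% of all genes that were lower. XRCC5 and XRCC6, the Ku subunits that bind broken ends, fell by 0.29 and 0.31, and the kinase gene PRKDC had 939, 986 and 949 CPM in untreated and 966, 925 and 984 CPM in irradiated libraries, which overlap. Of 12 crosslink repair genes 8 fell, led by FANCE (18.1 ± 0.701 to 9.47 ± 0.961 CPM), and FANCD2 was not called.

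Histone genes split by type. Of 9 variant and linker histone genes, which are transcribed outside S phase too, 7 fell and the other 2 were not called, with a median of -0.62. H1F0, a linker histone known from resting and differentiated cells, was at 231, 235 and 225 CPM in untreated and 32, 32.7 and 33.9 CPM in irradiated libraries. H1FX fell 2.74-fold and H2AFZ, the variant H2A.Z, from 488 ± 6.46 to 299.9 ± 7.18 CPM.

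Of 22 replication-dependent histone genes only 11 passed the filter, of which 6 rose and 5 were not called. Leaving out radiation replicate 2, 6 rose and 2 fell. The falls were those of HIST1H1E and HIST1H4E, named for this reason only, with log2 fold changes of -2.79 and -1.45 in that fit. HIST2H2BE had 36, 45 and 42 counts in untreated and 114, 120 and 118 in irradiated libraries, and HIST1H2BC had 18, 16 and 15 and 39, 48 and 37. The linker gene HIST1H1C, with 191, 172 and 172 and 144, 159 and 152 counts, was not called. Messages of this class mostly lack a poly(A) tail and have near-identical copies. The sources give both a ribosomal RNA removal protocol and an mRNA protocol, so the counting of these genes is uncertain.

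Genes of the ATF4 programme fell together. Of 48 tested members 39 fell, 4 rose and 5 were not called, with a median of -0.57 and 15 decreases of at least 2-fold. Without radiation replicate 2 the same numbers, 39 and 4, were found. ATF4 itself, the transcription factor that cells make when amino acids or protein folding fail, stood at 420.1, 422 and 414 CPM in untreated and 175, 178 and 181 CPM in irradiated libraries, a 2.35-fold decrease. Its partner CEBPG fell 2.42-fold and its inhibitor TRIB3 from 56.1 ± 4.29 to 25.3 ± 0.944 CPM. DDIT3, which encodes CHOP, fell by 0.46 on the log2 scale, and ATF3, also a damage-induced gene, rose from 5.4 ± 0.313 to 10.8 ± 1.1 CPM.

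ASNS and CHAC1 are shown because they fell most among enzymes and regulators of this list and hold an amino acid response element, the site ATF4 binds with a C/EBP partner. ASNS lies on the minus strand at chr7:97872409-97872658 and CHAC1 on the plus strand at chr15:40953221-40953470, and only the first of 2 starts of ASNS holds the word. Capitals mark TGATGNA, or its reverse complement TNCATCA, and in ASNS also the E2F word TTCCCGC, which begins after 2 further bases.
ASNS: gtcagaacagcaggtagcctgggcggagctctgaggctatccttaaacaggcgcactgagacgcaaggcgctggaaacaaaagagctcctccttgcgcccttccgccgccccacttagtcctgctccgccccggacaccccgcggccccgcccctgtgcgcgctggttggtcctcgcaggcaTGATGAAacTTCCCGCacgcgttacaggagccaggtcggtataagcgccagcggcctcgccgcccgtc
CHAC1: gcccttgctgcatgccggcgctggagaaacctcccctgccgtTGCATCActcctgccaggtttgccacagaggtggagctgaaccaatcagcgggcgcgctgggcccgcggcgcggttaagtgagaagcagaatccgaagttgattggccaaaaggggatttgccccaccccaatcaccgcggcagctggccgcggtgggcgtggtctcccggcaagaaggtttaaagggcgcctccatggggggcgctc
The response element begins 68 bases before the start in ASNS and lies on the opposite strand at 208 bases in CHAC1. TGATGNA was present for 23.1% (9 of 39) of the listed genes and 6.76% of all tested genes with an entry. Counted per start and not per gene, it was present for 8.41% of all promoters in the table. By direction it was present for 7.35% of higher and 6.39% of lower genes, and for 11.4% and 11.7% of those that rose or fell at least 2-fold.

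Among enzymes, ASNS, which makes asparagine, stood at 93.7, 90.6 and 93 CPM in untreated and 21.2, 20.9 and 21.3 CPM in irradiated libraries. The serine synthesis genes PHGDH and PSAT1 fell 2.3-fold and 2.47-fold, and MTHFD2, the mitochondrial folate enzyme, from 251 ± 4.23 to 135 ± 3.48 CPM. CHAC1, which degrades glutathione, had 75, 89 and 74 counts in untreated libraries and 10, 3 and 6 in irradiated ones.

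All 8 tested amino acid carriers fell, 7 of them at least 2-fold. SLC7A5, the leucine carrier LAT1, went from 498 ± 20.2 to 144 ± 4.26 CPM and SLC1A4, a neutral amino acid carrier, from 15.7 ± 0.651 to 3.58 ± 0.319 CPM. SLC7A11, the cystine carrier of system xc-, stood at 96.8, 114 and 114 CPM in untreated and 31.3, 35.2 and 34.3 CPM in irradiated libraries. Of 18 cytosolic tRNA synthetases 14 fell, by less. GARS fell from 353 ± 10.4 to 203 ± 2.3 CPM and AARS from 243 ± 6.43 to 149 ± 3.27 CPM, whereas HARS and QARS rose by 0.22 and 0.36 on the log2 scale.

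Ribosome production genes fell modestly. Of 30 nucleolar and RNA polymerase I genes 21 fell and 3 rose, with a median of -0.24, and without radiation replicate 2 the counts were 21 and 2. MYC, which drives this programme, fell 2.1-fold, from 48.9, 50.2 and 48.2 to 24, 23.1 and 23 CPM. Nucleolin NCL went from 1544 ± 30.6 to 1100.3 ± 1.42 CPM, fibrillarin FBL from 136 ± 3.62 to 87.8 ± 3.65 CPM and UBTF, a polymerase I factor, from 131 ± 1.31 to 86 ± 1.8 CPM. POLR1A, the polymerase's large subunit, rose from 106 ± 7.85 to 121 ± 2.22 CPM. Ribosomal protein genes were nearly level, with 23 of 32 not called, 6 higher and 3 lower. The count of lower ones was 1 with library totals or DESeq2. Among all genes 27.9% were higher and 28.2% lower.

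Stress and lipid lists held changes in both directions. Of 12 endoplasmic reticulum chaperone and stress genes 8 rose and 3 fell, beside 27.9% and 28.2% of all genes. The lectin chaperone CALR was higher (1281 ± 8.58 to 1799 ± 35.7 CPM) and the stress factor XBP1 lower (58.1 ± 1.72 to 31.7 ± 1.03 CPM). HSPA5, the chaperone BiP, fell by 0.14 on the log2 scale. Among 10 cytosolic heat shock genes 3 rose, a share near that of all genes, and 5 fell, including HSP90AA1 (2801 ± 30.7 to 1980.2 ± 83.3 CPM). Of 26 cholesterol and fatty acid synthesis genes 7 rose and 12 fell, and 7 and 11 without radiation replicate 2. The share of these lipid genes that rose was near the 27.9% of all genes, and the share that fell was above the 28.2% of all genes. SCD, the stearoyl-CoA desaturase, fell from 1084 ± 26.9 to 748 ± 19.1 CPM and SREBF1, a transcription factor of lipid synthesis, from 63.3 ± 4.41 to 43.3 ± 1.4 CPM.

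Lysosomal genes rose almost without exception, by small factors. Of 31 members, all tested, 28 rose and the other 3 were not called, with a median of 0.40, and 27 rose without radiation replicate 2. LAMP1, a main membrane protein of the lysosome, stood at 277, 253 and 253 CPM in untreated and 348, 340.2 and 337 CPM in irradiated libraries. The protease CTSD went from 139 ± 2.24 to 186 ± 1.24 CPM and GLB1, the beta-galactosidase used as a stain for senescent cells, from 45.7, 48.2 and 44.9 to 57.9, 60.3 and 60.6 CPM. In each of these genes the groups did not overlap. FUCA1, which removes fucose from glycans and is also a damage-induced gene, stood apart with 4.22, 3.29 and 3.86 CPM in untreated and 27.4, 27.5 and 28.6 CPM in irradiated libraries, a 7.33-fold rise. CTSK, a collagen-degrading protease, had 8, 3 and 14 counts before and 14, 29 and 27 after radiation, so the groups met at 14.

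Secreted factors mostly rose, with CXCL8 the main exception. Of 40 tested members 26 rose and 6 fell, with a median of 0.47, and without radiation replicate 2 the counts were 25 and 6. Another 19 of the 59 listed, among them CXCL1, CCL2 and TNF, were too low to be tested. TGFA, a ligand of the EGF receptor, stood at 74, 78.2 and 78.8 CPM in untreated and 296, 283 and 287 CPM in irradiated libraries. INHBA, which makes activin A, rose 2.03-fold, and IGFBP7 from 139 ± 7.95 to 257 ± 14.8 CPM.

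The cytokine IL6 was low in every library, with 13, 11 and 11 counts in untreated and 28, 27 and 44 in irradiated cells, and rose. CXCL8, which attracts neutrophils, fell from 65.8, 72.3 and 68.2 to 22.6, 21.8 and 23.8 CPM, and CXCL3 from 46, 38 and 38 counts to 16, 24 and 22. PLAT, the tissue plasminogen activator, rose from 161, 157 and 151 to 414, 406 and 396 CPM. TIMP3, a metalloproteinase inhibitor held in the matrix, rose 2.81-fold. PLAUR, the receptor of the urokinase-type activator, fell by 0.44 on the log2 scale.

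Matrix and contractile genes rose in 27 of 37 tested cases and fell in 6, with a median of 0.26 (26 and 6 without radiation replicate 2). COL7A1, the anchoring fibril collagen, rose from 8.07, 6.87 and 6.9 to 18.9, 22.1 and 23 CPM and VCAN, a large proteoglycan, from 81.2 ± 5.53 to 169 ± 0.938 CPM. ACTA2, smooth muscle actin, rose 5.19-fold, and TAGLN, a contractile gene often raised with it, was not called. The YAP targets CTGF and CYR61 fell by 0.36 and 0.50 on the log2 scale.

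Of 35 adhesion and immune contact genes 22 rose and 3 fell, with a median of 0.29 (21 and 3 without radiation replicate 2). ITGA2, a collagen receptor subunit, rose from 808 ± 44.1 to 1441 ± 29.3 CPM and ITGA6, a laminin receptor subunit, fell from 1246 ± 60.3 to 1001 ± 22.3 CPM. TNFSF9, the ligand 4-1BBL that costimulates T cells, stood at 16.8, 16 and 14.6 CPM in untreated and 63.3, 64.2 and 64.7 CPM in irradiated libraries. TNFRSF14, known as HVEM, rose 4.48-fold. CD274, which encodes PD-L1, went down from 34.5, 32.1 and 39 to 20.3, 24.2 and 18.9 CPM.

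**Figure D4:**
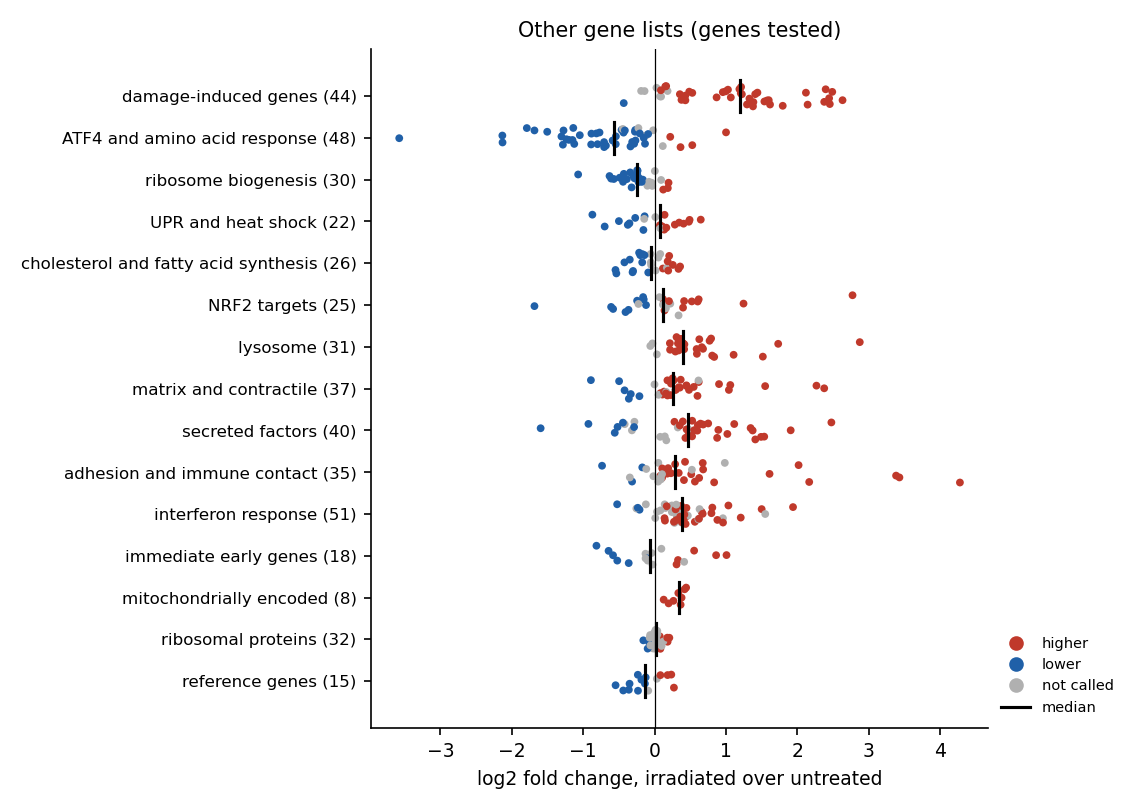
Log2 fold change of each tested gene in 15 lists, 1 row per list with the number of genes plotted, coloured by the edgeR call, with the median as a black bar. RSAD2 of the interferon list, which had 0 untreated counts, is left out. The lysosome row lies almost wholly right of 0 and the ATF4 row almost wholly left of it.

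Interferon-responsive genes rose in 27 of 52 tested cases and fell in 3, and in 25 and 2 without radiation replicate 2. Of all genes 27.9% rose and 28.2% fell. The antiviral gene TRIM22 stood at 21.7, 22.6 and 24.3 CPM in untreated and 88, 87.1 and 87.3 CPM in irradiated libraries. IFIT1, which binds foreign RNA, went from 33, 43 and 26 counts to 91, 86 and 103. The peptide transporter TAP1 rose from 15.6, 17.6 and 16 to 32.2, 32.8 and 30.7 CPM and HLA-B from 13.7, 12.8 and 12 to 22.4, 24.7 and 23.8 CPM. ISG15, a ubiquitin-like modifier, had 32, 25 and 23 counts in untreated and 46, 47 and 43 in irradiated libraries (log2 fold change 0.81 ± 0.324, edgeR adjusted p = 0.045). Its call was lost without any 1 of the 6 libraries, at adjusted p between 0.081 and 0.15.

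Radiation replicate 2 had the most counts of the irradiated libraries in 14 of 21 genes that are silent or low without interferon gamma. It was tied in 3, at 0 or 1 counts, and was not the highest in 4. Some of the 14 rest on very few reads, such as CXCL9 with 0, 1 and 0 counts. Not all 21 were near silent, and CIITA had 47, 47 and 50 counts in the untreated libraries. GBP5 had 2, 6 and 13 counts in the untreated and 10, 59 and 3 in the irradiated libraries, and the latter are 0.111%, 0.655% and 0.0322% of its mean level in the interferon gamma libraries. CD74, the MHC class II chaperone, had 18, 98 and 21 counts (0.312%, 1.69% and 0.351% of that level) and the class II gene HLA-DRA 8, 36 and 5 (0.458%, 2.05% and 0.276%). BST2 was near 0 in all of them, with 1, 2 and 1 counts, and BATF2, with 25, 24 and 26, was level. The class II gene HLA-DPB1 was the 1 gene of this kind that edgeR called, as lower, without that library. With all libraries, of the 20 tested genes edgeR called 0, with 3 at an unadjusted p under 0.05 (2 higher, 1 lower), and DESeq2 called 3 higher. The source of these reads was not tested. In TAP1 and HLA-B the other 2 irradiated libraries also lay above all untreated libraries.

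**Figure D5:**
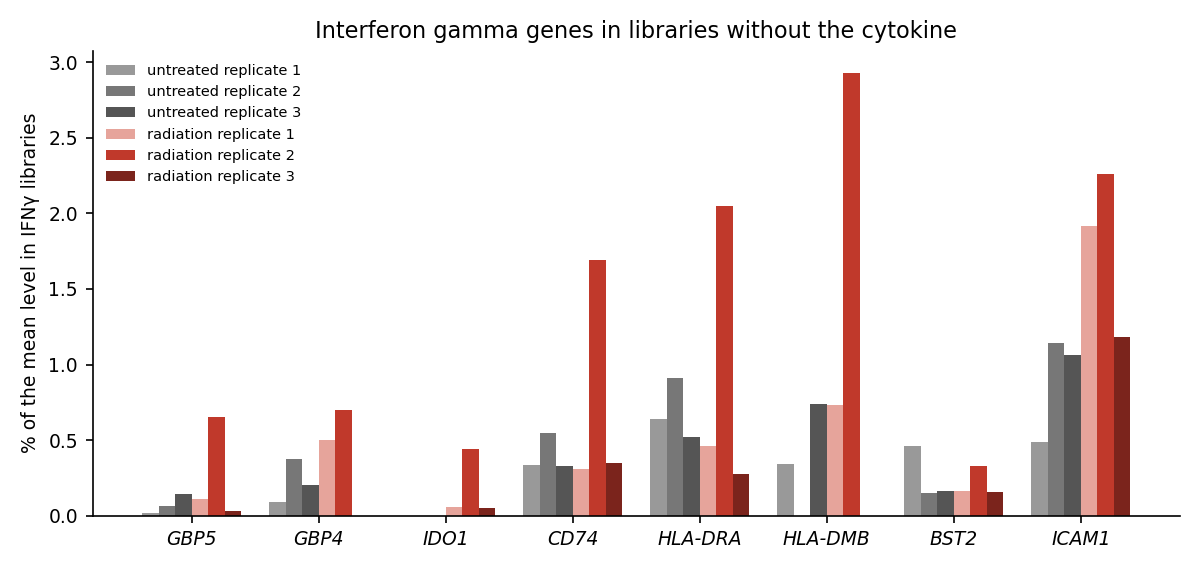
Level of 8 interferon gamma genes in each untreated and irradiated library as a percent of their mean level in the interferon gamma libraries. The 8 genes are among those in which radiation replicate 2 is the highest of the irradiated libraries. Genes without this order are not plotted. In that library CD74 was at 1.69%, HLA-DRA at 2.05% and HLA-DMB, the highest shown, at 2.93%.

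Antioxidant, early response and mitochondrial genes completed the lists. Of 25 NRF2 targets 10 rose and 9 fell, beside 27.9% and 28.2% of all genes. The aldo-keto reductase AKR1B10 rose from 3, 5 and 8 counts to 46, 30 and 32. The heme oxygenase HMOX1 rose by 0.52 and GCLC, which starts glutathione synthesis, fell by 0.61 on the log2 scale. Of 18 immediate early genes 5 rose and 6 fell, and 4 and 6 without radiation replicate 2, beside 27.9% and 28.2% of all genes. FOSL1, an AP-1 subunit, fell from 367 ± 17.3 to 209 ± 3.35 CPM and JUN from 149 ± 15.1 to 99.5 ± 5.3 CPM, whereas FOS rose from 9, 5 and 12 counts to 18, 21 and 12 and lost its call without untreated replicate 2 (adjusted p = 0.11) or radiation replicate 2 (0.091).

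The table holds 8 of 13 listed mitochondrially encoded genes and all 8 rose, with a median of 0.35. They made up 3.58% ± 0.0462 of counts in untreated and 4.45% ± 0.0115 in irradiated libraries (SD, n = 3). The part of this share in the values of other genes was not tested. Genes often used as references were not level: of 15, 9 fell and 4 rose, with a median of -0.14. Of all genes 28.2% fell and 27.9% rose. ACTB, cytoplasmic actin, fell from 5801, 5336 and 5506 to 4122, 4019 and 4137 CPM, TFRC, the transferrin receptor, from 1166 ± 24.6 to 799 ± 13.6 CPM, and GAPDH from 5090.0 ± 184 to 4633 ± 51.1 CPM. TBP, the TATA-binding protein, was not called, at 26.6, 24.8 and 27.5 CPM in untreated and 25.7, 24.4 and 24.1 CPM in irradiated libraries.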

How the data were processed

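The labels' protocols describe stranded total RNA libraries after removal of ribosomal RNA, whereas the design text names an mRNA protocol. The authors deposited raw counts per gene, without normalization, for 12 libraries in 4 groups of 3. FastQC 0.11.3, TopHat2 2.0.13, Cufflinks, Cuffdiff 2.2.1 and hg19 appear in the submitters' processing notes. The counter, its use of strand and the annotation were not given in the sources used here, so overlapping, antisense and near-identical genes are uncertain. A spreadsheet had turned 27 of 19293 symbols into dates, and those genes kept their identifiers.

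Genes were filtered with filterByExpr, which left out 0.0678% of counts. The median count of those kept was 320 per library. All 12 libraries were scaled by TMM and fitted with edgeR 4.0.16 in R 4.3.3 (robust quasi-likelihood F test, Benjamini-Hochberg adjustment over 12160 genes, common biological coefficient of variation 2.71%), with calls at an adjusted p under 0.05. CPM use the TMM-scaled totals and are given per library or as mean ± SD of 3. Mean log2 CPM used a prior count of 2. The SE was derived from the log2 fold change and F and is approximate. No label gives a batch or says that replicates were separate cultures, so the spread behind each p-value may be technical.

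The samples, 24 gene lists and the rule for named genes were chosen with earlier results of these data known. The rule takes the 15 largest called changes in each direction (mean log2 CPM of at least 2, no overlap between groups), each list's key genes and up to 3 called genes per role and direction. Some genes that the rule takes are not reported here. CDH2, BST2, BATF2, HLA-DPB1 and HLA-DRA, given as markers, lie outside it. Promoters came from RefSeq (GRCh38.p14), where MCM5 and SLC7A11 had also been sought. Alternatives were RLE scaling, library totals, no filter, the 6 libraries alone, a replicate block, DESeq2 1.42.0, glmTreat against a 1.5-fold change and leaving out each library.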

Additional observations from a re-analysis of the deposited data

How the results depend on the processing

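The number of called genes with an estimated decrease of at least 2-fold was 141. By a different criterion, a glmTreat test against a 1.5-fold change, 235 genes were lower. The other counts over all genes stayed within 1.5 times of their values, as did the higher damage-induced, lysosomal, secreted, matrix, adhesion and interferon genes and the lower replication, E2F, repair, ATF4 and ribosome production genes. Small list counts moved more. Lower ribosomal protein genes went from 3 to 1 with library totals or DESeq2 (1 to 5 when 1 library was left out), higher immediate early genes from 5 to 3 and lower interferon genes from 3 to 1 with DESeq2. For interferon gamma genes silent or low without the cytokine, higher calls went from 0 to 2 without the filter. They were 1 in the 6 libraries alone and 3 with DESeq2. No named gene with a call changed sign. CCNB1, PRKDC, CD74, GBP5, EGR1 and HSPA8, which were not called, changed sign in some fits. Genes called numbered 6859 with library totals (53.3% of them higher, against 49.7%), 6832 with RLE, 6883 without the filter, 6729 in the 6 libraries alone and 5868 with DESeq2, with 0 opposite calls. Leaving out 1 library gave 6334 to 6592 called genes, 35 to 37 higher damage-induced genes, 54 to 57 lower replication genes, 38 to 39 lower ATF4 genes, 26 to 28 higher lysosomal genes and 21 to 25 higher interferon genes. Same-numbered libraries did not deviate together (r = 0.0442, 0.0731 and -0.0796 over 8077 genes), and untreated replicate 1 correlated best with radiation replicate 3 (0.113). With the replicate block 6804 genes were called, 6770 of them shared, and 2 of the named genes lost their call. Small changes, such as those of RRS1, MMP1 and RPL18, lost their call in several of these fits. Depth limits the genes with under about 10 counts per library, where FOSB and CTSS lost their call in some fits.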

Other observations

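Some genes were almost silent in untreated cells and had counts in every irradiated library. They lie outside the rule for named genes and were chosen after their values were seen, for this pattern, so their counts are a description and no ratio or test is given. TREM2, a lipid receptor known from microglia and macrophages, had 0, 2 and 1 counts in the untreated and 49, 37 and 34 in the irradiated libraries. SIGLEC14, a sialic acid receptor of myeloid cells, had 1, 0 and 0 and 17, 14 and 25 counts, and it has a near-identical neighbour, SIGLEC5. DRAXIN, an axon guidance protein, had 1, 2 and 0 and 23, 14 and 27 counts. EBI3, a subunit of the cytokines IL-27 and IL-35, had 1, 2 and 0 and 20, 10 and 12 counts. APOBEC3H, a cytidine deaminase of antiviral defence, had 1, 0 and 2 and 11, 17 and 10 counts.

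For these 5 genes radiation replicate 2 was not the highest irradiated library, except for APOBEC3H. Of 11 immune markers, the pan-leukocyte marker PTPRC and the myeloid markers CD14 and ITGAM were below the filter in the same libraries. CD68, the only tested marker of these 11, rose from 121 ± 4.71 to 166 ± 1.56 CPM. The source of the counts of the 5 genes was not tested.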
